A study of Mus musculus with 42 samples.

Results

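HOXD9 and HOXC10 are posterior Hox transcription factors (TFs), and the regions described here are the strongest binding sites of each in differentiating mouse embryonic stem cells. Sites were taken from the list of ChIP-seq binding events of each factor at day 3. Events on the 19 autosomes and the X chromosome were ranked by signal, the number of reads that the event caller assigned to an event, and the 10000 strongest of each list were kept. They came from 56361 HOXD9 events and 26859 HOXC10 events, out of 1087512 events in the 21 lists of the whole series. A site was called shared when any event of the other factor lay within 100 bp, and a site of 1 factor alone otherwise. The question was how far a HOX9 paralog and HOXC10 occupy the same places, and what marks the places that only one list holds.

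All libraries came from embryoid bodies exposed to 1 µM retinoic acid and 0.5 µM of the Smoothened agonist SAG from day 0, induced with 3 µg/ml doxycycline at day 2 and collected 24 h later. Every line carried its Hox cDNA as a single doxycycline-inducible copy at the Hprt locus of Ainv15 cells, so each factor was ectopic and carried a tag. HOXD9 was profiled in 2 libraries, replicate 1 from a line with an N-terminal Flag tag and replicate 2 from a line with a C-terminal HA tag. HOXC10 was profiled in 3 libraries, replicate 1 from a V5-tagged line and replicates 2 and 3 from a Flag-tagged line. The file headers give both HOXD9 libraries 1 sequencing run name and the HOXC10 libraries others, so factor and run cannot be told apart. The HOXD9 libraries held 24323273 and 26011781 aligned reads, and the HOXC10 libraries 5036342, 18158702 and 21837512. The fraction of reads that the caller assigned to events was 18.1% and 13.5% in the HOXD9 libraries (15.8% ± 3.25, SD, n = 2) and 1.7%, 4.1% and 16.1% in the HOXC10 libraries (7.3% ± 7.71, SD, n = 3). HOXC10 replicate 3 was therefore close to both HOXD9 libraries in enrichment and contributed 80.9% of the HOXC10 signal reads, while the V5 library contributed 1.97%. The HA library contributed 44.4% of the HOXD9 signal reads, and no HOXC10 library carried this tag, so factor and tag cannot be fully told apart. The lists pool the libraries of a factor, so no site has a replicate error. Signal is given in RPM, signal reads per 1000000 aligned reads of the factor's libraries. The lists hold no expression values, so the cells were not checked against marker genes. The intervals given with shares are 95% Wilson intervals that cover the counting of sites only.

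Hox proteins are homeodomain TFs, and the set of them present in a cell differs between levels of the head-to-tail axis. HOX9 and HOX10 proteins both descend from the ancestral Abd-B type, and both prefer a TTTAT-type core over the TAAT core of more anterior Hox proteins. In the spinal cord, HOX9 paralogs are linked to thoracic identity and HOX10 paralogs to lumbar, limb-innervating identity. The TALE homeodomain proteins PBX and MEIS bind DNA together with many Hox proteins. A PBX half-site fused to the Hox core gives composite sequences such as TGATTTAT, and MEIS recognises TGACAG.

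The 3 sites of highest signal in each class are printed here to show what a bound sequence looked like, 5′ to 3′ on the plus strand of GRCm38, as 101 bases centred on the event. Capitals mark, on either strand, the Hox core TTTAT, its variant TTTAC, and the PBX-HOX type sequence TGATTTA, which overlaps both. TTTAT was found in 33.3%, TTTAC in 18.9% and TGATTTA in 1.92% of windows of this length on a genome grid. The shared sites were ordered by HOXD9 signal.
Shared, 18.7 kb past the start of Pck1, chr2:173171665-173171765: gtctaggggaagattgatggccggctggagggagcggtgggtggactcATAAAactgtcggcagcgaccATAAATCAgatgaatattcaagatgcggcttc
Shared, 5.24 kb past the start of Gpr84, chr15:103305324-103305424: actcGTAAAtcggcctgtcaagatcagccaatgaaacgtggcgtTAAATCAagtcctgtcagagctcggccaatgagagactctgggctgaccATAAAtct
Shared, 926 kb before Epha7, chr4:27887543-27887643: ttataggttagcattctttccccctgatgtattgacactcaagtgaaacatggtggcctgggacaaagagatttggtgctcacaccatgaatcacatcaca
HOXD9 alone, intron of Phactr2, chr10:13346792-13346892: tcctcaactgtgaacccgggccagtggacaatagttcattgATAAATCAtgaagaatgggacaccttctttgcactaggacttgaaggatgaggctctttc
HOXD9 alone, 925 kb before Epha7, chr4:27887688-27887788: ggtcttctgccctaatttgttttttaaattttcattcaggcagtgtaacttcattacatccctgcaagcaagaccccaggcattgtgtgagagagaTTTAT
HOXD9 alone, 100 bp before Khdc4, chr3:88685653-88685753: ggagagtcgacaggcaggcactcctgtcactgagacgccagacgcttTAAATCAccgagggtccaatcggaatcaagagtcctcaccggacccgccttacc
HOXC10 alone, 352 kb before Rarb, chr14:17170886-17170986: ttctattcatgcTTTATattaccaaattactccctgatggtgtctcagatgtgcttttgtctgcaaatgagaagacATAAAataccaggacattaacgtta
HOXC10 alone, 133 kb past the start of 3100002H09Rik, chr4:124478021-124478121: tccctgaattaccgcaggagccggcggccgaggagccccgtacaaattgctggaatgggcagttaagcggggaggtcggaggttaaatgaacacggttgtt
HOXC10 alone, intron of Robo2, chr16:74386975-74387075: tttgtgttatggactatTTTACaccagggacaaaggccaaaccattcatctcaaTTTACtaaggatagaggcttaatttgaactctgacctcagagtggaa
The shared sites near Pck1 and Gpr84 and the HOXD9-alone sites in Phactr2 and at Khdc4 each held TGATTTA. The 3 HOXC10-alone sites held TTTAT or TTTAC (Rarb and Robo2) or none of these spellings (3100002H09Rik), and none held TGATTTA. The shared Epha7 site held none of the 3 spellings. The second HOXD9-alone site lay 145 bp from a HOXC10 event, which belongs to the shared Epha7 site printed above it.

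Most of the strongest sites of HOXD9 and HOXC10 had an event of the other factor close by. Over the full lists, 21809 pairs of events were joined within 100 bp, out of 56361 HOXD9 and 26859 HOXC10 events. Of the 10000 top HOXD9 sites, 8457 had a HOXC10 event within 100 bp (84.6%, interval 83.8% to 85.3%), and 1543 were HOXD9 alone (15.4%). Of the 10000 top HOXC10 sites, 9334 had a HOXD9 event (93.3%, interval 92.8% to 93.8%), and 666 were HOXC10 alone (6.66%). The HOXD9 list is longer, and with both lists cut to equal length the 2 shares were 84.6% and 85.3%. Between the 2 sets of 10000 alone, 6059 HOXD9 sites (60.6%) met a top HOXC10 site and 5987 HOXC10 sites (59.9%) met a top HOXD9 site. The lists were called together in 1 run, and 7191 top HOXD9 sites and 7824 top HOXC10 sites had an event of the other factor at the same base.

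Sharing was nearly complete at the strongest sites and declined with rank. Among ranks 1 to 1000, 988 HOXD9 sites (98.8%) and 991 HOXC10 sites (99.1%) were shared. Among ranks 9001 to 10000, 714 HOXD9 sites (71.4%, interval 68.5% to 74.1%) and 849 HOXC10 sites (84.9%, interval 82.5% to 87%) were shared. The median rank was 6961 for HOXD9-alone sites and 7018 for HOXC10-alone sites, similar ranks in lists of unequal length (56361 and 26859 events). Sharing varied little by chromosome, from 82.6% on chromosome 15 to 89.5% on chromosome 18 for HOXD9 sites and from 91.3% on chromosome 12 to 95.4% on chromosome 9 for HOXC10 sites.

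**Figure D1:**
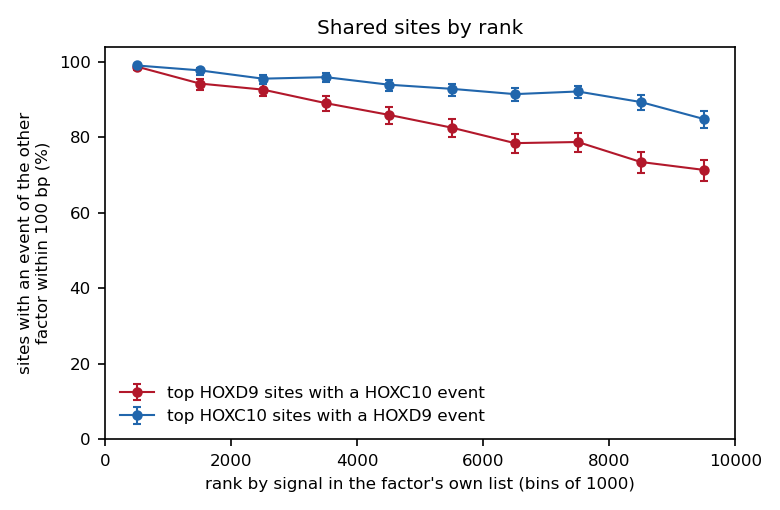
Percent of top sites with an event of the other factor within 100 bp (y axis), in bins of 1000 ranks of the factor's own list (x axis), with 95% Wilson intervals. Both lines start near 99% and the HOXD9 line ends lower, at 71.4% against 84.9% for HOXC10.

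In RPM, and by the choice of the top 10000, unshared sites stood well above the floor of the other list. This sets the signal of one factor against that of the other, so the margin depends on the scaling, as the signal ratios below do. HOXD9-alone sites had a median of 3.62 RPM and a minimum of 2.95, and the weakest event in the HOXC10 list had 0.977. HOXC10-alone sites had a median of 2.94 RPM and a minimum of 2.33, and the weakest HOXD9 event had 0.834. The last site inside the rank threshold and the first outside it both had 148 signal reads for HOXD9 and 105 for HOXC10. The distance rule was not a clean gap either. For HOXD9, 60 sites had their nearest HOXC10 event 91 to 100 bp away and 60 had it 101 to 110 bp away, and for HOXC10 these counts were 63 and 47. Of the HOXD9-alone sites, 480 had a HOXC10 event between 101 and 1000 bp away and 1063 had none within 1 kb (68.9%). Of the HOXC10-alone sites, 353 had such a neighbouring HOXD9 event and 313 had none within 1 kb (47%).

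The strongest shared sites had events of both factors at the same or nearly the same base. The strongest HOXD9 site, near the gluconeogenic enzyme gene Pck1, had 55.8 RPM of HOXD9 and 18.9 of HOXC10. The strongest HOXC10 site lay in an intron of Hoxc4, 971 bp from a transcription start site (TSS), and had 45.8 RPM of HOXC10 and 39.9 of HOXD9. The site in an intron of Hoxb4 had 43.3 RPM of HOXD9 and 29.9 of HOXC10. Others of the 10 shared sites of highest HOXD9 signal lay near Gpr84, Epha7, Tent4a, Slc8a3, Grik3 and Dysf, with HOXC10 values between 11.6 (Dysf) and 40.5 (Tent4a) RPM. All 10 had HOXA9, HOXC9 and day 4 HOXC10 events as well.

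Joining each top event to its nearest partner gave 5976 sites in the top of both lists, 5231 of them at the same base. Their median log2 ratio of RPM, HOXD9 over HOXC10, was 0.23, but it was -0.47 per signal read and -0.54 per summed signal of each list, so which factor was higher on average depends on the scaling. The spread around the median does not depend on it. The quartiles were -0.18 and 0.64, and 87.3% of sites lay within 2-fold of the median. Past 2-fold on the aligned-read scale were 654 sites higher for HOXD9 (10.9%) and 206 higher for HOXC10 (3.45%). Over all 21809 joined events of the full lists, the background shares were 12.0% and 6.50%, so the top sites did not exceed the background. The split turned with the scaling, to 79 sites higher for HOXD9 (1.32%) and 1167 higher for HOXC10 (19.5%) per signal read, against 2.10% and 27.1% of all joined events. Per summed signal it was 66 (1.1%) and 1345 (22.5%), against 1.73% and 30.3%. Relative to their own median, 347 sites were over 2-fold toward HOXD9 and 410 over 2-fold toward HOXC10. The log2 signals of the 2 factors had a Pearson r of 0.55 and a Spearman rho of 0.47 over the 5976 sites, which share the caller run, the control library and the selection for high signal in both lists.

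**Figure D2:**
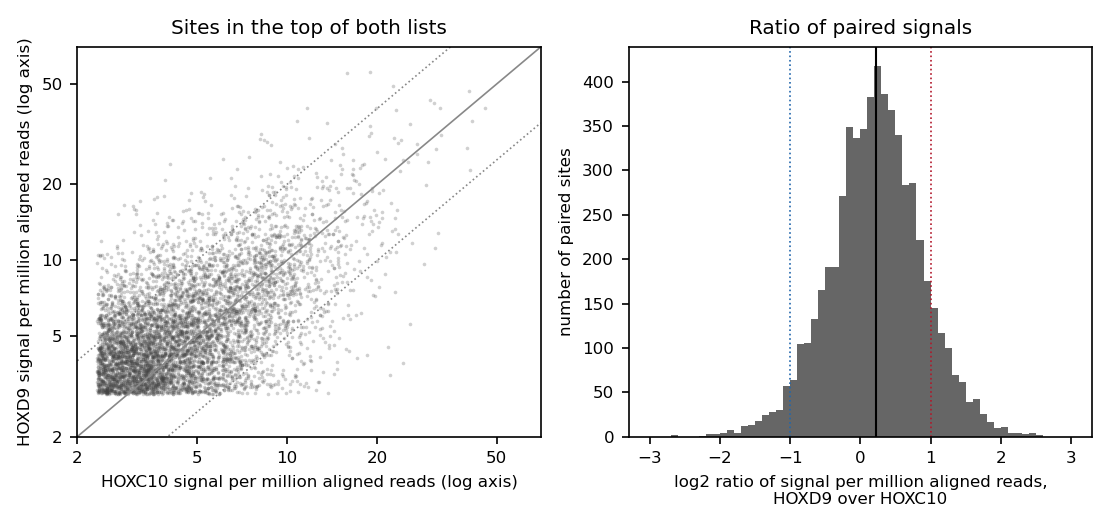
Left, HOXD9 against HOXC10 signal in RPM at the 5976 sites in the top of both lists (both axes logarithmic, 1 point per site); the solid line marks equal values and the dotted lines 2-fold. Right, number of sites by log2 ratio, with the median at 0.23 (solid line) and 2-fold (dotted lines). Most points lie between the dotted lines.

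The pairs of most unequal signal were picked for their ratio and are given as a description. Furthest toward HOXD9 was a site 82.8 kb from a start of Rarb, a retinoic acid receptor, with 24.1 RPM of HOXD9 and 4.07 of HOXC10 (log2 ratio 2.56). A site in an intron 336 kb from the start of Gfra1, a GDNF coreceptor, followed with 16.6 and 2.87 (2.53), and a site in an intron of Auts2 had 15.2 and 2.74 (2.47). Furthest toward HOXC10 was a site in an intron 167 kb from the start of the TALE cofactor Meis2, with 3.5 RPM of HOXD9 and 22.1 of HOXC10 (-2.65). A site 278 kb from the start of Triqk had 3.9 and 24.3 (-2.64). A site in an exon 208 bp from the start of Hoxa5 had 4.55 and 21.7 (-2.25).

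The sequence under the sites differed between the unshared classes. TTTAT lay within 50 bp of 47.6% of HOXD9-alone sites (interval 45.1% to 50.1%) and 58.1% of HOXC10-alone sites (54.3% to 61.8%). This order was the reverse with HOXA9 or HOXC9 in place of HOXD9, as given below with these paralogs. Shared sites lay between, at 53.1% and 54.9% for the HOXD9 and HOXC10 sites. The same window on a 100 kb grid over the genome held TTTAT in 33.3% of 25576 positions, and windows 1 kb to each side of HOXD9-alone and HOXC10-alone sites held it in 31.8% and 33.4%. The longer core TTTATNG followed the same order, at 16.1% of HOXD9-alone sites, 22.4% of shared HOXD9 sites and 23.9% of HOXC10-alone sites, against 6.28% of the grid. HOXC10-alone sites also held 2 or more TTTAT copies more often than HOXD9-alone sites, 22.8% against 11.5%.

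The PBX-HOX type sequence ran the other way. TGATTTA lay within 50 bp of 19.8% of HOXD9-alone sites (interval 17.9% to 21.9%) and 5.11% of HOXC10-alone sites (3.68% to 7.05%), with shared sites at 16.9% (HOXD9) and 13% (HOXC10) and the genome grid at 1.92%. TGATTTAT, which contains both TTTAT and TGATTTA, was in 10.6% of HOXD9-alone and 2.7% of HOXC10-alone sites. TGATTTAC was in 4.67% and 0.601%, and TGATTTAA in 2.46% and 1.5%. At ranks 5001 to 10000, TGATTTA was in 18.1% of HOXD9-alone and 4.68% of HOXC10-alone sites, and among sites with no event of the other list within 1 kb in 21.8% and 4.47%. The MEIS-type TGACAG was in 15.7% and 10.4%, against 6.43% of the grid, with intervals of 14% to 17.6% and 8.27% to 12.9%. The E-box CAGATG, of the kind recognised by basic helix-loop-helix TFs, was in 9.46% of HOXD9-alone and 15% of HOXC10-alone sites, against 7.43% of the grid, and CAGCTG in 7.45% and 12.6%. Median GC content was 43.6% at HOXD9-alone and 41.6% at HOXC10-alone sites, and over 50% repeat-masked windows made up 2.27% and 2.25% of the classes against 30.2% of the grid.

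Signal at sites in the top of both lists was also related to this sequence, at sites that neither unshared class contains but in the same libraries. The 521 pairs with TGATTTAT had a median log2 ratio of 0.39 (quartiles 0.03 and 0.79), and the 5455 pairs without it 0.22 (-0.2 and 0.62). The 210 pairs with TGATTTAC had 0.45. TGACAG gave 0.34 with and 0.22 without it, and CAGATG gave 0.15 with and 0.25 without it. TTTAT itself made little difference, 0.22 with and 0.25 without. Among the 2223 pairs with exactly 1 TTTAT, the 296 in which it was preceded by TGA had 0.45, against 0.24 for all of them. Of the pairs over 2-fold toward HOXD9 relative to the median, 21.9% held TGATTTA, and of those over 2-fold toward HOXC10, 8.05%. The quartiles of these groups overlap widely, so the sequence separated group medians and not single sites.

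Events of the other Hox lists also divided the classes. A HOXA9 event lay within 100 bp of 93.5% of HOXD9-alone sites (interval 92.1% to 94.6%) and 59.5% of HOXC10-alone sites (55.7% to 63.1%). A HOXC9 event lay at 67.1% of HOXD9-alone sites (64.8% to 69.4%) and 79.6% of HOXC10-alone sites (76.4% to 82.5%). At shared sites both lists were near saturation, at 99.3% and 95.8% of HOXD9 sites. HOXD9-alone sites had a HOXA9 event without a HOXC9 event in 28.5% of cases and the reverse in 2.2%, whereas HOXC10-alone sites had HOXA9 without HOXC9 in 4.35% and HOXC9 without HOXA9 in 24.5%. HOXD9 and HOXA9 libraries carry the same run name, and HOXC9 and HOXC10 libraries share others. Tag follows the same split: HOXD9 and HOXA9 each have a Flag and an HA library, and HOXC9 and HOXC10 have no HA library. The parts of run and tag in the result were not tested. HOXC13, which carries the run name of HOXD9 and also has an HA library, had events at 27.7% of HOXD9-alone, 30.2% of HOXC10-alone and 40.9% of shared HOXD9 sites. The lists differ in length, and with the HOXC9 list cut to the length of the HOXC10 list the HOXC9 shares were 36% and 53%, and with the HOXA9 list cut likewise the HOXA9 shares were 88.6% and 33.9%.

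The HOXC10 list of day 4, from 4 other libraries with 48 h of induction, offered a second look at HOXC10. It had an event at 74.1% of shared HOXD9 sites, 75.9% of shared HOXC10 sites, 55.7% of HOXC10-alone sites (interval 51.9% to 59.4%) and 33.7% of HOXD9-alone sites (31.4% to 36.1%). A HOXC10 event was thus recorded at day 4 for 520 of the 1543 sites called HOXD9 alone at day 3. In its place as the HOXC10 list, the day 4 list gave 67.9% of top HOXD9 sites with a HOXC10 event. HOXC8 events lay at 54.4% of HOXD9-alone and 55% of HOXC10-alone sites, and HOXC6 events at 27.3% and 21.3%, with overlapping intervals for HOXC8.

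MEIS events lay more often at sites of HOXD9 alone than at sites of HOXC10 alone. MEIS was profiled at day 3 in lines induced for V5-tagged HOXC6, HOXC9 or HOXC10, with 1 library each and none in HOXD9 cells. In HOXC9 cells a MEIS event lay at 49% of HOXD9-alone sites (interval 46.5% to 51.5%) and 28.2% of HOXC10-alone sites (24.9% to 31.8%), against 67.3% and 59.5% of shared HOXD9 and HOXC10 sites. Shared sites rank higher. At ranks 5001 to 10000 these shares were 44.4% and 23.6% at unshared sites, against 53.5% and 49.8% at shared sites. At unshared sites of all ranks, the shares were 29.4% and 18.8% in HOXC10 cells, and 24.8% and 11.4% in HOXC6 cells. The order was thus the same in the cells induced for HOXC10. HOXD9-alone sites with a MEIS event in HOXC9 cells held TGATTTA in 24.3% and those without one in 15.5%, and for HOXC10-alone sites 19 of 188 and 15 of 478 held it. Paired sites with a MEIS event in HOXC6 cells had a median log2 ratio of 0.36 (n = 2377) and those without 0.17 (n = 3599). The PBX lists held 1164 and 848 events on these chromosomes and met at most 0.414% of any class, so PBX occupancy could not be compared at this depth.

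**Figure D3:**
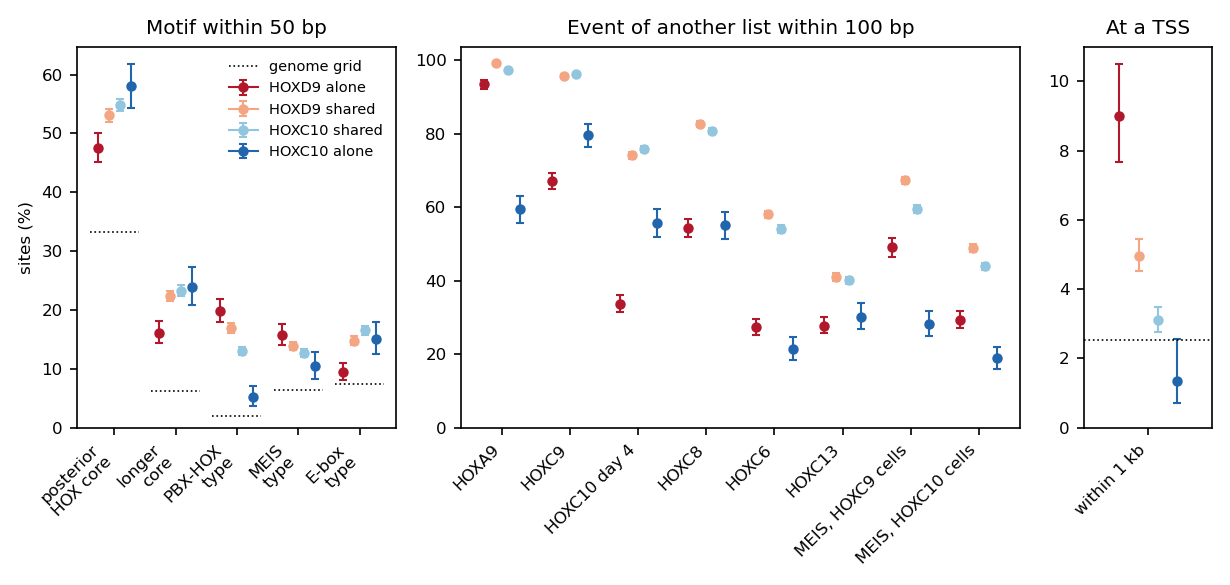
Percent of sites (y axes) in the 4 classes with a motif within 50 bp (left), an event of another list within 100 bp (middle) or a TSS within 1 kb (right). Points have 95% Wilson intervals, and dotted lines in the left and right panels give the genome grid. HOXD9-alone sites stand above HOXC10-alone sites for the PBX-HOX type motif (19.8% against 5.11%), HOXA9 and MEIS events and TSSs, and below them for TTTAT, HOXC9 and day 4 HOXC10 events.

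Most sites of every class were distal, and HOXD9-alone sites came closest to genes. Of the HOXD9-alone sites, 139 lay within 1 kb of a TSS of a protein-coding gene (9.01%, interval 7.68% to 10.5%), against 9 of the HOXC10-alone sites (1.35%, interval 0.713% to 2.55%), 4.95% and 3.11% of shared HOXD9 and HOXC10 sites and 2.53% of the genome grid. The median distance to the nearest TSS was 48.9 kb for HOXD9-alone sites, 61.9 kb and 72.5 kb for the shared sites and 96.7 kb for HOXC10-alone sites, against 56.8 kb for the grid. Sites over 100 kb from any TSS made up 33.8% of HOXD9-alone and 49.1% of HOXC10-alone sites. Introns held 44.5% and 41.3%, and exons 3.63% and 1.2%. At the 139 TSS sites, 3 or more CpG lay in 68.3% of windows, against 14.2% of the other HOXD9-alone sites, and TTTAT in 37.4% against 48.6%. TGATTTA was as common at the TSS sites (18.7%) as elsewhere (19.9%), with overlapping intervals, and away from TSSs it was in 5.18% of HOXC10-alone sites.

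The same rule applied to the other HOX9 paralogs shows where HOXD9 differed from them. Against HOXC10, 2004 top HOXA9 sites and 3394 top HOXC9 sites were unshared, more than the 1543 of HOXD9. TTTAT lay at 58.6% of HOXA9-alone and 72.2% of HOXC9-alone sites (interval 70.7% to 73.7%), both above the 47.6% of HOXD9-alone sites. TGATTTA lay at 14.2% and 7.54% (6.7% to 8.48%), and a TSS at 2.69% and 0.825% (0.571% to 1.19%), all below the HOXD9-alone values of 19.8% and 9.01%. MEIS events in HOXC9 cells lay at 41.5% of HOXA9-alone and 22.4% of HOXC9-alone sites. The HOXC10-alone sites of these comparisons, 528 against HOXA9 and 503 against HOXC9, did not keep the order found with HOXD9 for every measure. They held TTTAT in 49.2% (interval 45% to 53.5%) against HOXA9 and 43.5% (39.3% to 47.9%) against HOXC9, in both cases below the sites of the paralog alone, whereas HOXC10-alone sites stood above HOXD9-alone sites. TGATTTA lay at 5.11% of them against HOXA9, below the paralog as with HOXD9, and at 8.35% against HOXC9, within an interval (6.24% to 11.1%) that overlaps that of the HOXC9-alone sites. A TSS lay at 1.33% (0.644% to 2.71%) against HOXA9 and 2.58% (1.52% to 4.37%) against HOXC9, the latter above the HOXC9-alone sites. MEIS events lay at 30.5% (26.7% to 34.5%) against HOXA9, below the HOXA9-alone sites, and at 33.2% (29.2% to 37.4%) against HOXC9, above the HOXC9-alone sites.

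The 10 strongest unshared sites of each class are named by the nearest gene, whatever its distance. First among the HOXD9-alone sites was the intronic Phactr2 site, at 23.5 RPM, with the nearest HOXC10 event 54694 bp away but a HOXC10 event at day 4. The site 100 bp before Khdc4 had 12.7 RPM and the site 345 bp before Ttll11, a tubulin glutamylase gene, 9.56. Others lay in an intron of the ephrin receptor gene Epha4 (9.11), in an intron of the nuclear receptor gene Rora (rank 661 of the HOXD9 list), and nearest to Ice1, Nr3c2 and Thap1 (11.9, 9.65 and 9.47). Of the 10, 9 had a HOXA9 event, 8 a HOXC9 event, 2 a day 4 HOXC10 event, and 4 a HOXC10 event within 1 kb.

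First among the HOXC10-alone sites was the site 352 kb before Rarb, at 28.5 RPM and rank 16, with the nearest HOXD9 event 2701 bp away. An intronic site 1601 bp past a start of Aldh1a2, which encodes a retinoic acid-synthesising enzyme and marks limb-innervating motor columns, had 9.32 RPM and a HOXD9 event 306 bp away. A site 18.2 kb from the start of Nkx6-1, a progenitor homeobox gene, had 8.99, a site 558 kb from Isl1, the LIM homeobox gene of motor neurons, 9.16, and a site 269 kb before Fign 7.99. The Isl1 site lay 158 bp and the Fign site 113 bp from a HOXD9 event, and the Isl1 site had no day 4 HOXC10 event. The other 5 were nearest to 3100002H09Rik, Robo2, Fsip2, Gm6657 and Ggact. The intronic site of Robo2, a Slit receptor gene, had 12.8 RPM and lay 101 bp from a HOXD9 event, just outside the distance rule. Of the 10, 8 had a HOXA9 event, 9 a HOXC9 event, 8 a day 4 HOXC10 event and 6 a HOXD9 event within 1 kb.

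Nearly all top sites of both factors around the Hox clusters were shared. Within 50 kb of the listed genes, the HoxA cluster held 31 shared HOXD9 and 26 shared HOXC10 sites, HoxB 16 and 17, HoxC 14 and 15, and HoxD 13 and 15. Only 1 site of HOXC10 alone lay in these 4 regions, in HoxA with 3.99 RPM and a HOXD9 event 125 bp away, and only 1 of HOXD9 alone, in HoxB with 4.57 RPM and a HOXC10 event 201 bp away. Neither was isolated from the other factor. Every listed Hox gene had a shared site of both factors within 50 kb except Hoxb13, Hoxc12 and Hoxc13, at the 5′ ends of their clusters. This reach spans several genes, so a gene can be counted through sites at its neighbours. Toward the 5′ ends, the last sites in the top of both lists were nearest to the starts of Hoxa9, Hoxb7, Hoxc8 and Hoxd8. Hoxa13 and Hoxc11 were counted only through such sites. Among the strongest pairs were those near Hoxb4 (43.3 RPM of HOXD9 and 29.9 of HOXC10), in Hoxc4 (39.9 and 45.8) and near Hoxd3 (34.7 and 25.6).

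Within a cluster, neighbouring pairs differed in ratio. The median log2 ratio was 0.41 over 24 HoxA pairs, 0.41 over 14 HoxB pairs, 0.1 over 14 HoxC pairs and 0.62 over 12 HoxD pairs, beside 0.23 over all pairs. In HoxA it ran from -2.25 at the Hoxa5 exon to 1.81 at a site 89 bp from a start annotated to Gm28308, a gene model that overlaps Hoxa3 to Hoxa6. In HoxD the site 90 bp before a start of Hoxd3 had 18.5 RPM of HOXD9 and 4.79 of HOXC10 (1.95). In HoxB, an intronic Hoxb5 site had 18.6 and 9.1 (1.03), and the neighbouring exonic Hoxb5 site had 7.44 and 14.6 (-0.98). In HoxC the ratios ran from -1.3 to 1.16, with the lowest 5645 bp from the start of Hoxc4.

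**Figure D4:**
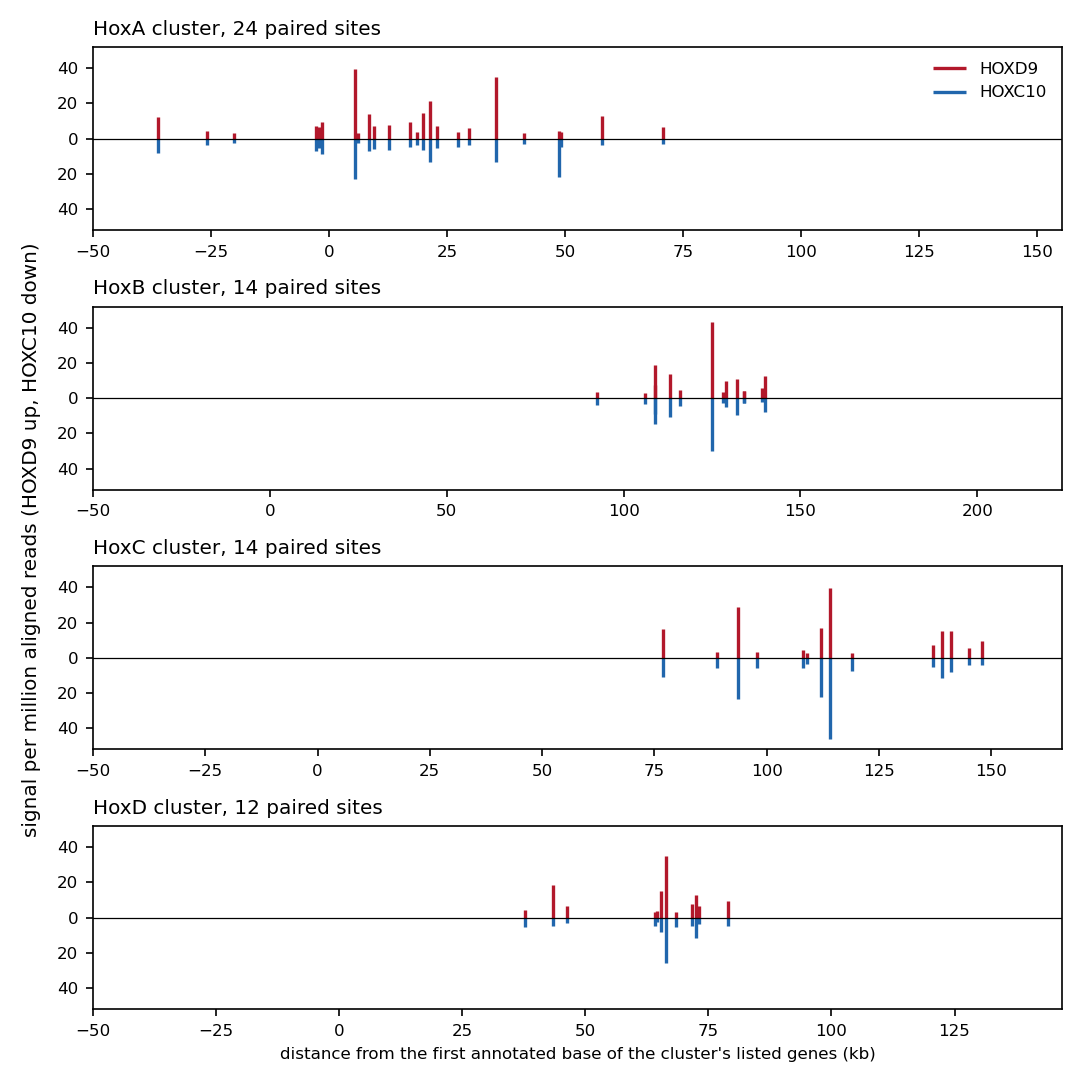
Signal in RPM of HOXD9 (red, up) and HOXC10 (blue, down) at each site in the top of both lists around the 4 Hox clusters; the x axes give the distance in kb from the first annotated base of the listed genes. Tall bars face each other in every cluster, and the site of the Hoxa5 exon in HoxA is the clearest with a taller HOXC10 bar (21.7 against 4.55).

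Unshared sites were read gene by gene against the share of all genes. Of 21755 protein-coding genes, 24.1% had a shared HOXD9 site within 50 kb of the gene body, 22.5% a shared HOXC10 site, 8.24% a HOXD9-alone site and 2.29% a HOXC10-alone site. Among the 1792 genes near HOXD9-alone sites and the 498 near HOXC10-alone sites, 129 were common, 7.2% of the former and 25.9% of the latter. Counts per gene grow with gene length, and the lists below hold several long genes. The genes of a list can also share a site.

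A shared HOXD9 site lay near 14 of 17 motor neuron identity genes (82.4%), 10 of 13 genes of motor columns and pools (76.9%), 17 of 27 semaphorin, slit and netrin guidance genes (63%), 12 of 22 Eph receptor and ephrin genes (54.5%), 10 of 16 retinoic acid pathway genes (62.5%), 12 of 18 Notch pathway genes (66.7%), 7 of 13 type II cadherin genes (53.8%), 6 of 9 TALE cofactor genes (66.7%), 3 of 5 GDNF receptor genes (60%) and 5 of 10 caudal axis genes (50%), against 24.1% of all genes. HOXC10 shared sites gave counts within 3 genes of these in each list. For HOXD9, the counting intervals of the GDNF receptor genes (23.1% to 88.2%) and the caudal axis genes (23.7% to 76.3%) included the 24.1% of all genes.

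The share of all genes with a HOXD9-alone site was 8.24%. Such sites lay near 12 of 27 guidance genes (44.4%), with 4 at the Slit receptor gene Robo2, 3 at Robo1 and 2 at the semaphorin receptor gene Nrp1. They lay near 7 of 22 Eph and ephrin genes (31.8%), where Efna1, Efna3 and Efna4 are neighbours that share their 2 sites and had no other site of either factor. The TALE genes Meis1 (3 sites) and Meis2 (2) had them as well. They lay near 5 of 17 motor neuron genes (29.4%), among them Nkx6-2 (2), Chat (1) and Nkx6-1 (1), and near 5 of 13 column and pool genes (38.5%), among them Foxp1, Esrrg (2 each) and Bmp5 (1). Counting intervals, which treat the genes of a list as independent, included the share of all genes in other lists. Among type II cadherins the count was 3 of 13 (23.1%, interval 8.18% to 50.3%), at Cdh6 (2), Cdh11 and Cdh12 (1 each). In the retinoic acid pathway it was 2 of 16 (12.5%, interval 3.5% to 36%), at the receptor gene Rxra (2) and the binding protein gene Crabp2 (1). In the Notch pathway it was 3 of 18 (16.7%, interval 5.84% to 39.2%), at Hey1, Jag1 and Rbpj (1 each). The counts of 0 of 10 caudal axis and 0 of 5 GDNF receptor genes, with intervals up to 27.8% and 43.4%, include that share too.

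The share of all genes with a HOXC10-alone site was 2.29%. Among 17 motor neuron genes, 2 (11.8%) had one. Mnx1, the motor neuron homeobox gene, had 3 such sites, beside 3 shared HOXC10 sites and 1 shared HOXD9 site, and Nkx6-1 had 2. HOXC10-alone sites lay near 6 of 13 column and pool genes (46.2%), among them Esrrg (2), Aldh1a2 and Etv4 (1 each). The 2 of 5 GDNF receptor genes with such a site (40%), the coreceptor gene Gfra1 and the receptor tyrosine kinase gene Ret (1 each), had no HOXD9-alone site. Sites of HOXC10 alone lay near 6 of 27 guidance genes (22.2%), among them Slit3 (2), Dcc and Plxna4 (1 each), and near 2 of 9 TALE genes (22.2%), Meis2 (2) and Meis1 (1). Among Eph and ephrin genes the count was 2 of 22 (9.09%, interval 2.53% to 27.8%), at Efna5 (2) and Efnb2 (1). The counting intervals included the share of all genes for the single genes Crabp1 of 16 in the retinoic acid pathway (6.25%, interval 1.11% to 28.3%) and Cdh22 of 13 type II cadherins (7.69%, interval 1.37% to 33.3%). The same held for the counts of 0 of 18 Notch and 0 of 10 caudal axis genes. At Foxp1, which specifies limb-innervating columns, 14 shared HOXD9 and 18 shared HOXC10 sites stood beside 2 HOXD9-alone sites and 1 HOXC10-alone site. The HOXD9-alone sites had 4.08 and 3.02 RPM, with the nearest HOXC10 events 5313 and 624 bp away. The HOXC10-alone site had 3.1 RPM and a HOXD9 event 263 bp away. At Aldh1a2 the site described above was the only unshared one, beside 2 shared HOXD9 and 3 shared HOXC10 sites.

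Over all protein-coding genes, the most HOXD9-alone sites lay around Gm20388 (10 sites), an annotated gene of 4435 kb, followed by Lrmda and Nrxn3 (5 each) and Aff3 and Cmss1 (4 each). The most HOXC10-alone sites lay around the polarity gene Pard3b, with 5 beside 8 shared HOXD9 and 15 shared HOXC10 sites and no HOXD9-alone site. Auts2, Fam114a1, Med27 and Mnx1 followed with 3 each. There were 43 genes with 3 or more HOXD9-alone sites and 8 with 3 or more HOXC10-alone sites.

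**Figure D5:**
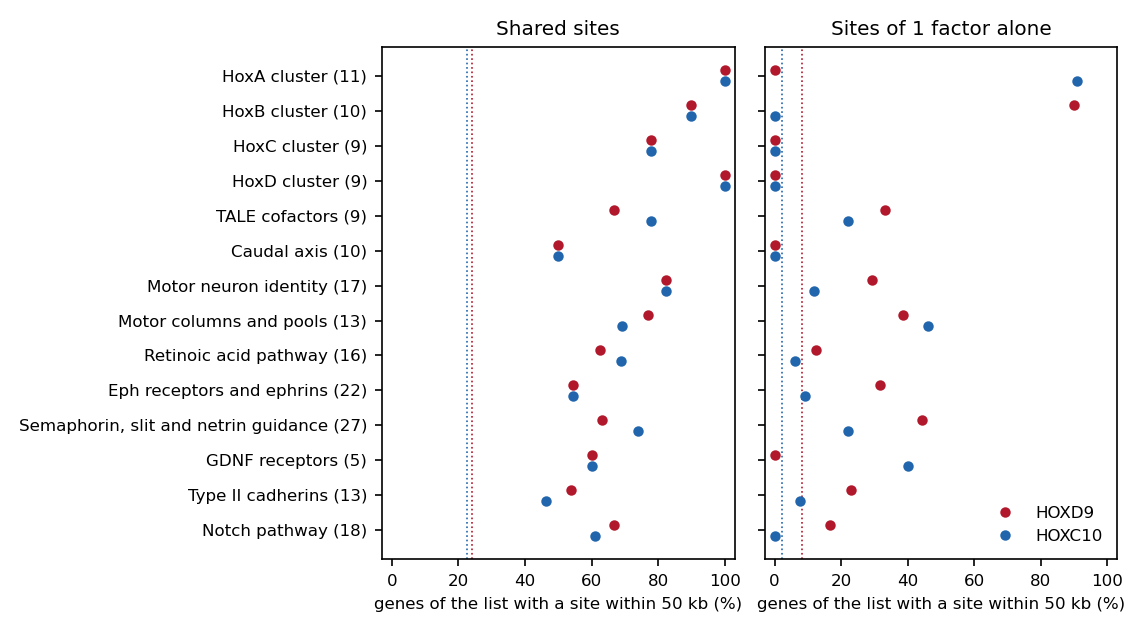
Percent of the genes of each list (number of genes in brackets) with a shared site (left) or a site of 1 factor alone (right) within 50 kb, HOXD9 in red and HOXC10 in blue; dotted lines mark all protein-coding genes. Points for shared sites lie to the right of the lines in all 14 lists, and the values near 90% for unshared sites in HoxA and HoxB each come from 1 site that neighbouring genes share.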

How the data were processed

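The data are ChIP-seq of induced, tagged Hox proteins. Per the submitters' processing notes and the study's methods, the authors aligned reads to mm10 with Bowtie 1.0.1, keeping uniquely mapped reads, and called events with MultiGPS 0.74 at a q-value under 0.001. Both lists came from 1 run with a common control library of 20590685 reads. Each deposited list gives, per event, the estimated count of signal reads and of scaled control reads summed over the factor's libraries, the log2 fold of signal over control, and a log2 q-value. Columns of edgeR comparisons between factors, which hold fold changes and p-values, were not used. From the deposited estimated counts, events were ranked and joined in Python 3.11.15 with numpy 2.4.6 and pandas 2.3.3, and signal was divided by the factor's total aligned reads. No pseudocount or filter on low values was applied. Sequence came from GRCm38, the build mm10 names: all 56361 deposited HOXD9 sequences lay within 50 bp of their event in it. TSSs and gene bodies came from GENCODE M21. The functions were tested on simulated lists and sequences.

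Samples were grouped by their labels. Libraries of a factor are pooled in its list, so no comparison has a test over samples; depth and enrichment of each library are given with the samples. The members, gene lists and motifs were chosen with earlier results of these data known, and the motifs other than TTTAT and TTTATNG, the subsets of sites and the unequal pairs after values were seen. Named genes are those nearest to the 10 sites of highest signal per class, up to 3 per list by number of unshared sites, all Hox genes, and the 5 genes with most unshared sites. PBX lists hold few events and were not compared. Peak files that repeat the lists were not used. Alternatives changed the distance, ranking, list length, q-value threshold, scaling, motif window and gene assignment. Results at a few genes are not reported here.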

Additional observations from a re-analysis of the deposited data

How the results depend on the processing

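No paired analysis was possible because each deposited list pools its libraries and no result comes from a test over samples. Of 44 planned or added alternatives to the main results, 13 stayed within the counting interval of the main value. For signal fractions, a range of 1 SD took the place of this interval. The 13 include every signal fraction with 1 library left out. With so few libraries such a mean cannot move by 1 SD, whatever the values. The 13 also include the HOXD9 share with lists of equal length. That share could not change, because the HOXC10 list was already the shorter one. For these alternatives, staying within the range says nothing about stability. The share of top HOXD9 sites with a HOXC10 event (84.6%) was 79.8% at 50 bp, 87.8% at 200 bp, 92.2% for the top 5000, 70% for the top 20000, 60.6% against the top 10000 HOXC10 sites, 63.8% against HOXC10 events with a q-value under 1e-10, and 67.9% against the day 4 HOXC10 list, an alternative chosen after seeing the data. The share of top HOXC10 sites with a HOXD9 event (93.3%) was, in the same order, 87.7%, 95.8%, 96.5%, 86.6%, 59.9% and 82.1%, with 80.5% for the top day 4 HOXC10 sites, 92.6% when ranked by q-value and 85.3% with lists of equal length. The HOXC10 share was the higher one under each of these except against the top 10000 of the other list.

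The median log2 ratio (0.23) changed sign per signal read (-0.47), per summed list signal (-0.54) and as the difference of the log2 folds over control (-0.17), and was 0.12 over all joined events. TTTAT at HOXD9-alone sites (47.6%) was 31.6% within 25 bp, 64.6% within 100 bp and 16.1% as TTTATNG. HOXC9 events there (67.1%) were 75.2% at 200 bp and 36% with a shortened HOXC9 list. TSS sites (9.01%) were 6.87% at 500 bp and 10.7% at 2 kb. Genes near HOXD9-alone sites (8.24%) were 5.19% at 20 kb, 13% at 100 kb, 5.7% by nearest TSS and 7.52% when ranked by q-value. Leaving out 1 library gave mean signal fractions of 0.135 to 0.181 for HOXD9 and 0.029 to 0.101 for HOXC10, the lowest without replicate 3. The lists cannot be split by library, so the weight of HOXC10 replicate 3 in the HOXC10 sites was not tested. Of 39 further alternatives chosen after seeing the data, for the HOXA9, MEIS, day 4 HOXC10, HOXC9, TSS, TTTAT and TGATTTA shares of unshared sites, 27 stayed within the interval and the other 12 kept HOXD9-alone and HOXC10-alone sites in the same order. The HOXC10 libraries have 45032556 aligned reads at a mean signal fraction of 0.073, against 50335054 at 0.158 for HOXD9. The part of this in the unequal list lengths was not tested.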

Other observations

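The series also holds chimeras of HOXC10 and HOXC13, with 2 libraries each, in which the N-terminal part of one protein is joined to the DNA-binding domain of the other. The lists of all 4 chimeras met the sites of HOXC10 alone more often than the sites of HOXD9 alone, whichever DNA-binding domain the chimera carried. Of those with the HOXC10 DNA-binding domain, the chimera labelled Hoxc13:c10.1 had an event at 83% of HOXC10-alone and 57% of HOXD9-alone sites, and Hoxc13:c10.2 at 97.4% and 82%. Chimeras with the HOXC13 DNA-binding domain met fewer sites of either class, with Hoxc10:c13.1 at 24.9% of HOXC10-alone and 8.3% of HOXD9-alone sites and Hoxc10:c13.2 at 28.5% and at 158 of 1543 sites. At shared HOXD9 sites the 4 shares were 86.1%, 98.3%, 29.2% and 31.6%. The order held with each list cut to the length of the HOXC10 list, at 46.1% and 21.6% for Hoxc13:c10.1 and 12% and 3.76% for Hoxc10:c13.1.

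In embryoid bodies induced for 12 h, whose labels name no retinoic acid or SAG, the HOXC9 list had events at 39.8% of HOXC10-alone and 29% of HOXD9-alone sites, and the HOXC6 list at 7.66% and 20.1%. On the genome grid these lists met 1.04% and 0.364% of positions. With the HOXC9 list cut to the length of the HOXC10 list its shares were 14.9% and 8.62%. The HOXC6 list at day 4 met 63.8% of HOXC10-alone and 70.4% of HOXD9-alone sites, and the HOXC9 list at day 4 met 58% and 54.6%, with overlapping intervals for the last pair.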
